A study of Mus musculus with 6 samples.

Results

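The accessible chromatin around *Sox1*, *Sox3*, *Sox14* and *Sox21*, the SoxB genes other than *Sox2*, was described in parent and SRR2-18-deleted neural stem/progenitor cells (NSPCs). An ATAC-seq interval was assigned to one of these 4 genes when its strongest summit, the position with the highest fold enrichment in the interval, lay nearest to that gene's transcription start site (TSS) among all protein-coding TSSs and at most 50 kb from it. This gave 36 of 190365 intervals: 22 of 82885 in the parent list and 14 of 107480 in the deletion list. ATAC-seq marks open chromatin by the insertions of a transposase, so a tall interval is one whose DNA was often reached by the enzyme.

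The parent cells were clone 5B, a 129S1/Cast F1 hybrid line that carries Sox2-mCherry on the 129 allele and no deletion. The deleted cells were clone 47D of the same hybrid, also with Sox2-mCherry (129), from which the *Sox2* enhancer cluster SRR2-18 had been removed on both alleles with Cas9 in the embryonic stem cells. Both were grown as NSPCs in N2B27 medium with EGF and bFGF, with 3 cultures of each genotype. Each genotype is 1 clone, so a difference between genotypes cannot be told apart from a difference between clones. The 3 cultures of a genotype were pooled in its list, so every value below is a single value per genotype, without replicate error, and no test between genotypes was possible.

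Sox proteins bind DNA through an HMG box and are sorted into groups by its sequence. The SoxB1 proteins SOX1, SOX2 and SOX3 activate transcription and keep neural progenitors from differentiating, whereas the SoxB2 proteins SOX14 and SOX21 act mainly as repressors at similar sites. *Sox1* and *Sox3* are expressed in the early neural plate and in neural progenitors, *Sox21* is expressed in progenitors and promotes neuronal differentiation, and *Sox14* is expressed mainly in subsets of differentiating neurons. Each member is a gene of 1 exon in the annotation used. *Sox1* is at chr8:12395295-12400126 on the plus strand, *Sox3* at chrX:60891366-60893430, *Sox14* at chr9:99874106-99876170 and *Sox21* at chr14:118233232-118237030, these 3 on the minus strand (mm10).

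The DNA under the intervals that carried the differences is given first, as mm10 reference sequence, whereas the cells were 129S1/Cast hybrids. Capitals mark exact matches, on either strand, to a SOX core (ACAATG), an AP-1 site (TGANTCA), an octamer bound by POU factors (ATGCNAAT) or a ZIC core (CAGCAGG). None of the matches printed overlaps another. The promoters come from RefSeq (GRCm38.p6), which held 3 of the 4 members, and are shown on the strand of the gene. The other stretches are the 201 bases centred on a strongest summit, on the plus strand. The *Sox14* and *Sox21* promoters are the 250 bases before the start, chr9:99876171-99876420 and chr14:118237031-118237280, and stand for a promoter lost from the deletion list and one kept in both.
Sox14 promoter: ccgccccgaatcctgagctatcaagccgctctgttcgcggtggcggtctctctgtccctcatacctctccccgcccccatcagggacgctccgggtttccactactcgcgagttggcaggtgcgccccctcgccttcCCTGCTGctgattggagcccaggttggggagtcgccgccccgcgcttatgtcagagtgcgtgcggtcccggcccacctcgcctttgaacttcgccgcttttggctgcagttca
Sox21 promoter: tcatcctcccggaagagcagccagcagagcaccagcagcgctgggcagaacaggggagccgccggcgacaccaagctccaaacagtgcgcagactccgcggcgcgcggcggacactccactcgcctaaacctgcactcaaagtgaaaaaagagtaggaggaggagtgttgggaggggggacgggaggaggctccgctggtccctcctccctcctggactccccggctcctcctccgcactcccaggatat

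The summits of the *Sox1* promoter interval lay beside an octamer, shown with 30 bases at chr8:12395526-12395555. The parent-only interval 37.5 kb downstream of *Sox1*, chr8:12432662-12432862, held another octamer between 2 SOX cores. The deletion-only interval 22.0 kb downstream, chr8:12417146-12417346, held 2 AP-1 sites.
Sox1 octamer: gccagcgcgccATGCAAATcaccgccgccg
Sox1 +37.5 kb: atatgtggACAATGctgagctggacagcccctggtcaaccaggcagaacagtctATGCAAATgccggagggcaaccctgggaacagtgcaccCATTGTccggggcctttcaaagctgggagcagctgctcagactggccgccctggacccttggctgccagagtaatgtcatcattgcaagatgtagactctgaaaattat
Sox1 +22.0 kb: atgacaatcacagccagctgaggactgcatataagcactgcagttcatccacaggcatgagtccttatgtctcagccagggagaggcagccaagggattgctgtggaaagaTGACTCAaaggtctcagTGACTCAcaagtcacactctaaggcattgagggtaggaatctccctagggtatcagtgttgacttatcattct

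At *Sox21*, the tallest interval of the parent list (chr14:118231072-118231272) and a parent-only neighbour (chr14:118230452-118230652) are shown with the interval that was tallest in the deletion list (chr14:118213496-118213696). The deletion-only interval of *Sox14* follows (chr9:99838964-99839164).
Sox21 +5.9 kb: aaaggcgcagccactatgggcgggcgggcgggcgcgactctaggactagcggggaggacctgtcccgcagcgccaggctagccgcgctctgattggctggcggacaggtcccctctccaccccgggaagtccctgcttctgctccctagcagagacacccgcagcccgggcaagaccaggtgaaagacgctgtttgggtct
Sox21 +6.5 kb: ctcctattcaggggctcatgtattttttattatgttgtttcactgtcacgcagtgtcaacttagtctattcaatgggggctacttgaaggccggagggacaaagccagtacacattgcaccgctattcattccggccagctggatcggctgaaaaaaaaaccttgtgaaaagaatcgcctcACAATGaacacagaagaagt
Sox21 +23.4 kb: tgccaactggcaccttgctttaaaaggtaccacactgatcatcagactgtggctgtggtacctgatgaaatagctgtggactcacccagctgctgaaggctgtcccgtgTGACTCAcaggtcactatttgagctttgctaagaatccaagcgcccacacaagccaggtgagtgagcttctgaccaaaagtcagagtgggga
Sox14 +37.1 kb: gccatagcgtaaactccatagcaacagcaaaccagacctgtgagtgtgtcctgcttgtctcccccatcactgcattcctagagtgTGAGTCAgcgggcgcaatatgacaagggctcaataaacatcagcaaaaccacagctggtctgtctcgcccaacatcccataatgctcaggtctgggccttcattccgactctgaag

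At the SoxB genes 7 of the 11 shared interval pairs were lower in the deletion list, close to the 60.8% of all shared pairs. The share of parent intervals absent from the deletion list, 50.0%, was also near the 52.3% of the whole list. The sizes of the differences varied by gene. Heights are the reads at the strongest summit divided by the genome-wide mean of the list, 38.8 reads for the parent and 19.7 for the deletion list, because the pooled parent reads were deeper than the pooled deletion reads by a factor of 1.98. Summed over all intervals of the 4 genes, summit height was 696 in the parent and 262 in the deletion list. *Sox21* went from 383 to 119, *Sox1* from 211 to 95.6 and *Sox3* from 80.8 to 12.0, whereas *Sox14* went from 21.7 to 35.0. *Sox14* was therefore the member with the lowest sum in the parent and the member whose sum was not lower in the deletion list. An interval absent from a list adds 0 to its sum, so these sums move with how much was called. The intervals of a gene covered 6412 bp in the parent and 6750 bp in the deletion list for *Sox1*, 3312 and 1189 bp for *Sox3*, 1371 and 1260 bp for *Sox14* and 6339 and 3311 bp for *Sox21*. The mean height per interval was 26.3 and 15.9 for *Sox1*, 40.4 and 12.0 for *Sox3*, 7.22 and 17.5 for *Sox14* and 42.6 and 23.8 for *Sox21*, in the same directions as the sums. The sum was lower in the deletion list for 3 of the 4 genes, against 58.1% of the 15396 genes with intervals in both lists. The ratio of the deletion to the parent sum was 0.149 for *Sox3*, which 1.19% of these genes matched or went below. It was 0.311 for *Sox21* (4.83% of genes at or below) and 0.454 for *Sox1* (10.8%), beside a median over genes of 0.892. For *Sox14* the ratio was 1.62, and 79.7% of genes had the same or a smaller ratio.

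**Figure D1:**
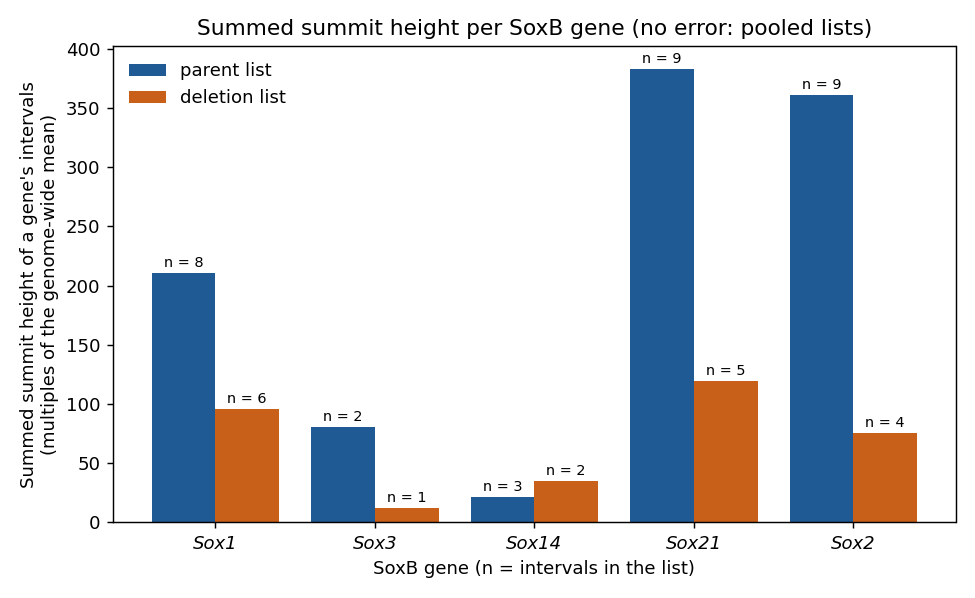
Summed summit height of the intervals of each SoxB gene (y axis, multiples of the genome-wide mean) in the parent list (blue) and the deletion list (orange), with the number of intervals above each bar and no error bars because cultures were pooled. *Sox21* stood at 383 in the parent and 119 in the deletion list, and *Sox14* is the gene with the taller bar in the deletion list.

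Part of this difference sat in the surroundings of the summits and not in the summits alone. The deposited fold enrichment divides the reads at a summit by a local background, which is the larger of the genome-wide mean and the mean in a wider window, so a broadly open region lowers its own fold enrichment. When fold enrichments were summed in place of heights, the ratio of deletion to parent was 0.950 for *Sox1*, 0.889 for *Sox21*, 0.598 for *Sox3* and 1.23 for *Sox14*. The order of the genes stayed, but most of the distance from 1 was gone for *Sox1* and *Sox21*. The highest local background at *Sox21* was 17.8 times the genome-wide mean in the parent, a value that 0.403% of parent intervals reached, and 3.69 times in the deletion list. At *Sox3* it was 7.36 and 1.78 times, and at *Sox1* 5.64 and 2.35 times. At *Sox14* it was 1.00 in the parent, the lowest value possible, and 1.83 in the deletion list. The deletion value of *Sox14* is that of its interval at +7.4 kb, one that 42.7% of the deletion list reached, and its other deletion interval was at 1.00.

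**Figure D2:**
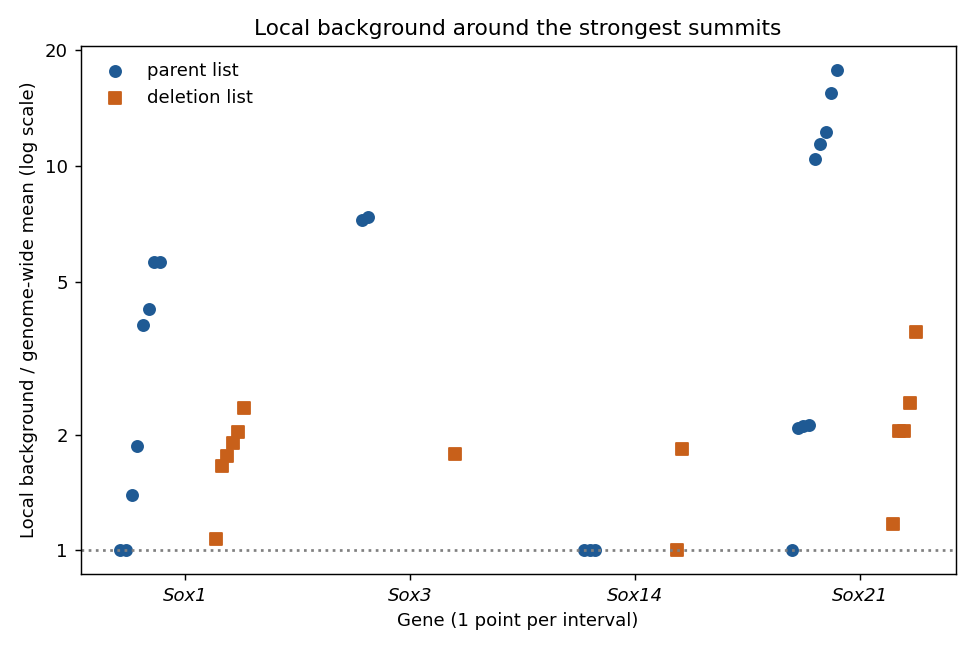
Local background around the strongest summit of each interval (y axis, multiples of the genome-wide mean, log scale) for the 4 genes (x axis), 1 point per interval, parent list in blue and deletion list in orange. The 5 highest parent intervals of *Sox21* sit above 10 times the mean, and no deletion-list interval of any of the 4 genes is above 3.69.

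Counts of intervals pointed the same way for each gene. *Sox1* had 8 intervals in the parent and 6 in the deletion list, *Sox3* had 2 and 1, *Sox14* had 3 and 2, and *Sox21* had 9 and 5. All 4 genes had more parent than deletion intervals in the conservative lists, a relation found in 27.8% of the 17645 genes with an interval in either list. In the optimal lists, the other list deposited for each genotype, it did not hold for *Sox1* (8 and 8) or *Sox14* (3 and 5). Of the 22 parent intervals, 11 overlapped no deletion interval (50.0%, Wilson 95% interval 30.7 to 69.3%), beside 52.3% of all parent intervals. The share of parent-only intervals was thus near that of the whole list. Of the 14 deletion intervals, 3 overlapped no parent interval (21.4%, 7.57 to 47.6%), beside 63.1% of all deletion intervals. The share of deletion-only intervals was below that of the whole list. Of the 4 parent intervals within 1 kb of a member's TSS, 1 was parent-only, beside 15.2% of all parent intervals within 1 kb of a TSS. Of the 3 such deletion intervals, 0 were deletion-only, beside 21% of the list's. These list shares take the TSSs of all gene types, non-coding ones included, whereas the member counts take the member's own TSS.

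**Figure D3:**
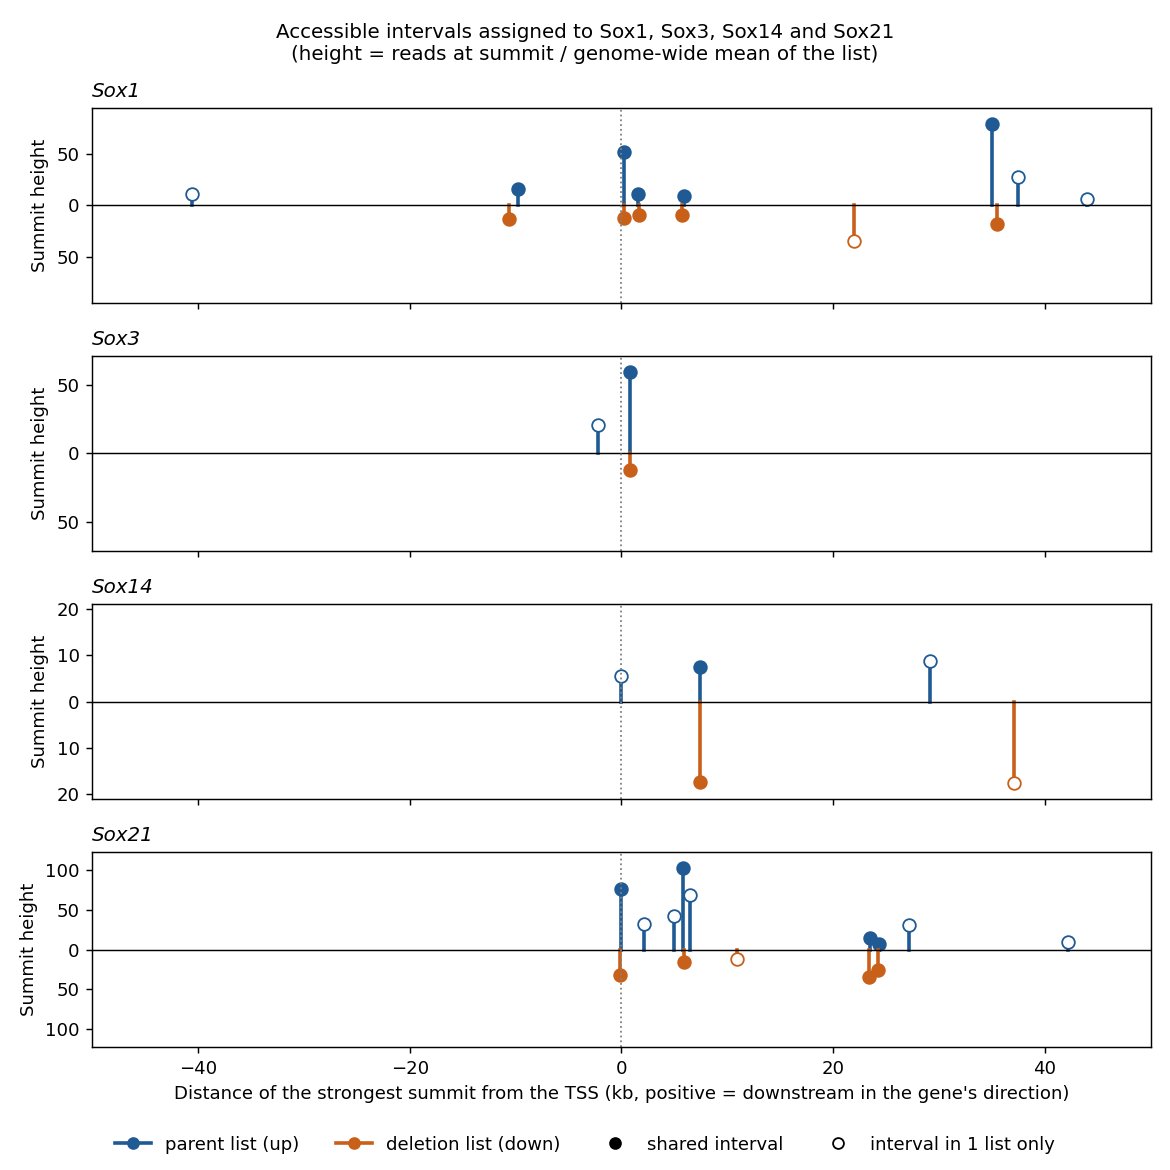
Strongest summits of the 36 intervals by distance from the TSS (x axis, kb) and summit height (y axis, multiples of the genome-wide mean, a separate scale per gene), parent list upward in blue and deletion list downward in orange, with filled points for shared intervals and open points for intervals in 1 list only. The parent list of *Sox21* shows 5 intervals between the TSS and 6.5 kb where the deletion list shows 2.

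*Sox1*, the SoxB1 gene whose product marks neuroectoderm, had its promoter open in both lists (parent chr8:12394909-12396002, deletion chr8:12394892-12396006). The strongest summit fell in the 5′ untranslated region in both. Its height was 51.6 in the parent (2004 reads) and 12.1 in the deletion list (238 reads), a ratio of 0.235 with a 95% counting interval of 0.205 to 0.268. Counting intervals here and below treat reads as independent and cover counting error only. Among all 39500 shared pairs, 3.94% had a ratio as low, and the median ratio of pairs within 1 kb of a TSS was 0.733. The octamer printed above lay 18 bp from the parent summit and 1 bp from the deletion summit. It was the same octamer in both lists, since the summits were 26 bp apart. An octamer was found in 3.15% of the 32851 RefSeq promoters.

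The tallest *Sox1* interval of the parent list was not the promoter but lay 35.0 kb downstream, in an exon of *Sox1ot*, a non-coding transcript that overlaps *Sox1* (chr8:12429704-12430787). Its height was 79.1 in the parent and 17.6 in the deletion list, a ratio of 0.223 (0.199 to 0.249), which 3.55% of shared pairs matched. The strongest summits were 426 bp apart there, so the height was not read at the same base. The parent-only interval at +37.5 kb, with the octamer and 2 SOX cores, had a height of 27.4 (1066 reads). At the depth of the deletion libraries this would be 540 reads, more than 66.4% of deletion intervals had at their summit. The interval lay over a local background of 5.63 times the genome-wide mean, with a fold enrichment of 4.86. Peaks are called against local background, so its raw reads cannot tell whether it would be called. Its downstream SOX core lay 3 bp from the summit. The remaining parent-only intervals, at −40.5 and +44.0 kb, had heights of 10.6 and 6.49.

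In the deletion list the tallest *Sox1* interval was one that the parent lacked, at +22.0 kb in an intron of *Sox1ot* (chr8:12416950-12417576). Its height was 34.8 (685 reads), over a local background of 1.07 times the genome-wide mean. Its fold enrichment of 31.1 ranked it in the top 0.196% of the deletion list. Both AP-1 sites printed above lay within 28 bp of the summit. The shared interval at +1.6 kb, in the coding exon, had heights of 11.0 in the parent and 8.90 in the deletion list, and that at +5.9 kb had 8.68 and 9.21. Their ratios of 0.806 (0.676 to 0.961) and 1.06 (0.886 to 1.27) were nearer to 1 than those of the promoter and of the interval at +35.0 kb. In the upstream shared interval the strongest summits were 822 bp apart, at −9.8 kb in the parent (height 15.7) and at −10.6 kb in the deletion list (12.9), so their ratio of 0.824 (0.712 to 0.954) compares different sites. The nearest summit of the deletion list to the parent's strongest one had a height of 10.5, and the nearest parent summit to the deletion list's strongest one had 8.83. At its 2 ends this interval therefore differed in opposite directions.

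*Sox3*, the X-linked SoxB1 gene, kept 1 interval in the deletion list and lost the part of it that covered the TSS. In the parent a single interval of 2987 bp with 10 summits covered the gene's start and most of its coding exon (chrX:60891832-60894818). In the deletion list the interval was 1189 bp wide, had 4 summits and ended 434 bp inside the gene (chrX:60891808-60892996), so no deletion interval lay over the *Sox3* TSS. The strongest summits lay in the coding exon, 4 bp apart, at +0.86 kb. The height there was 59.7 in the parent (2319 reads) and 12.0 in the deletion list (236 reads), a ratio of 0.201 (0.176 to 0.230) at or below which 2.90% of shared pairs fell. The pairs on chromosome X had a median ratio of 0.787, and those within 1 kb of a TSS on any chromosome had 0.733. The second parent interval, 2.2 kb upstream, had a height of 21.1 and was parent-only. All 7 upstream summits of the parent list were thus without a counterpart in the deletion list, which had 0. Their fold enrichments were low, from 1.26 to 3.25, beside 8.09 at the strongest summit. The local background of the parent intervals was 7.26 and 7.36 times the genome-wide mean, so these summits stood little above their surroundings. How many X chromosomes each clone carried was not given in the sources used here.

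*Sox21*, the SoxB2 gene of neural progenitors, showed the largest sum in the parent list among the 4 genes and was not lower in the deletion list at every interval. At the promoter (parent chr14:118235930-118237629, deletion chr14:118236190-118237555) heights were 75.9 and 31.9, a ratio of 0.420 (0.386 to 0.458). Among all shared pairs 11.1% had a ratio as low. Pairs within 1 kb of a TSS had a median ratio of 0.733, with 5% of them below 0.369. Both promoter summits of *Sox21* lay just upstream of the TSS, within the lincRNA gene *Gm4675*. Fold enrichment at the same pair was 7.27 in the parent and 8.54 in the deletion list, the opposite order, with a local background of 10.4 and 3.69 times the genome-wide mean. The tallest parent interval of any of the 4 genes lay at +5.9 kb, downstream of the gene (chr14:118230973-118231398). Its height was 102 in the parent and 16.0 in the deletion list, with ratio 0.156 (0.140 to 0.175), and 1.77% of shared pairs were as low. The summits were 64 bp apart.

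Around it the parent list held 3 more *Sox21* intervals, at +2.1 kb in the coding exon, +5.0 kb and +6.5 kb. Their heights were 32.6, 42.5 and 68.8, and all 3 were parent-only. The intervals at +2.1 and +5.0 kb stood little above their surroundings. Their fold enrichments were 1.83 and 2.74, over local backgrounds of 17.8 and 15.4 times the genome-wide mean. Of all parent intervals, 99.9% and 98.1% had a fold enrichment at least as high, against 74.9% for the interval at +6.5 kb. The one at +6.5 kb (2673 reads) would have had 1353 reads at the depth of the deletion libraries, more than 90.9% of deletion intervals. Given its high local background, raw reads cannot tell whether it would be called. The SOX core printed for it lay 81 bp from its summit. Further parent-only intervals lay at +27.1 kb, in an exon of the lincRNA gene *4933431J24Rik*, and at +42.2 kb, with heights of 31.0 and 9.32.

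The pair of intervals near +24 kb went the other way. At +23.5 kb the height was 13.9 in the parent and 34.5 in the deletion list, where it was the tallest *Sox21* interval (chr14:118213451-118213809), a ratio of 2.48 (2.22 to 2.78). At +24.4 kb, in an intron of *4933431J24Rik*, it was 6.82 and 25.2, a ratio of 3.69 (3.18 to 4.28), higher than in 92.5% of shared pairs or equal to them. The strongest summits of this pair were 171 bp apart, so the height was not read at the same base. Both intervals held an AP-1 site within 100 bp of the summit in either list. At +23.4 kb the site lay 9 bp from the deletion summit and 77 bp from the parent summit. Local background was almost equal there, at 2.12 and 2.05 times the genome-wide mean. The deletion-only interval at +10.9 kb had a height of 11.5.

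*Sox14*, the SoxB2 gene of differentiating neurons, had the lowest heights in the parent list and was the only member whose TSS was covered by an interval in the parent but had no interval within 1 kb in the deletion list. The parent interval over the TSS (chr9:99876005-99876442) had a height of 5.51 (214 reads). At the deletion depth this is 108 reads, and 3.02% of deletion intervals had fewer, so an interval of this size was near the lower limit of what the deletion list could hold. The ZIC core in the promoter printed above lay 72 bp from its summit, and 10.5% of RefSeq promoters held one. The shared interval at +7.4 kb had summits 1 bp apart, with heights of 7.47 in the parent and 17.4 in the deletion list, a ratio of 2.34 (2.00 to 2.73). The tallest parent interval, at +29.2 kb (chr9:99846848-99847141), had a height of 8.68. It was parent-only here but overlapped an interval in the deletion genotype's optimal list, the other list deposited for each genotype. The tallest deletion interval, at +37.1 kb (chr9:99838872-99839467), was deletion-only, with a height of 17.6 and an AP-1 site 9 bp from its summit.

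Over all members, 7 of the 11 shared pairs were lower in the deletion list, beside 60.8% of all shared pairs. The share of falling pairs was thus close to that of the list, but the members were spread widely. The 4 lowest ratios, from 0.156 to 0.235, belonged to *Sox21* at +5.9 kb, *Sox3*, *Sox1* at +35.0 kb and the *Sox1* promoter. The 3 highest, from 2.34 to 3.69, belonged to *Sox14* at +7.4 kb and *Sox21* near +24 kb. For comparison, 5% of all shared pairs were below 0.267 and 5% above 4.80. The counting interval lay below 1 for 7 pairs, above 1 for 3 and around 1 for the remaining one, *Sox1* at +5.9 kb. The share of all shared pairs with such an interval away from 1 was not computed, so these counts do not set the members apart. By fold enrichment 6 of the 11 were lower in the deletion list. The share of all shared pairs lower by fold enrichment was not computed, and the 60.8% above is by height.

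**Figure D4:**
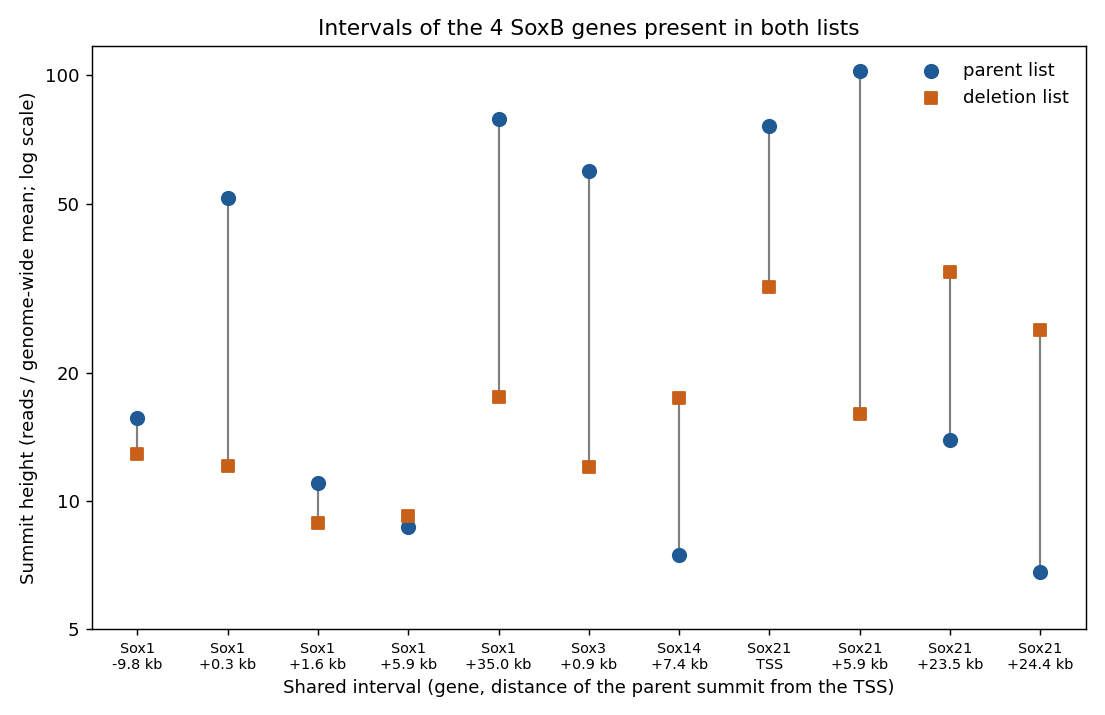
Summit heights (y axis, multiples of the genome-wide mean, log scale) of the 11 shared intervals (x axis, gene and distance from the TSS) in the parent list (blue circles) and the deletion list (orange squares), joined per interval. The longest drop, 102 to 16.0, is *Sox21* at +5.9 kb, and the longest rise, 6.82 to 25.2, is *Sox21* at +24.4 kb. The summits of that rising pair were 171 bp apart.

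**Figure D5:**
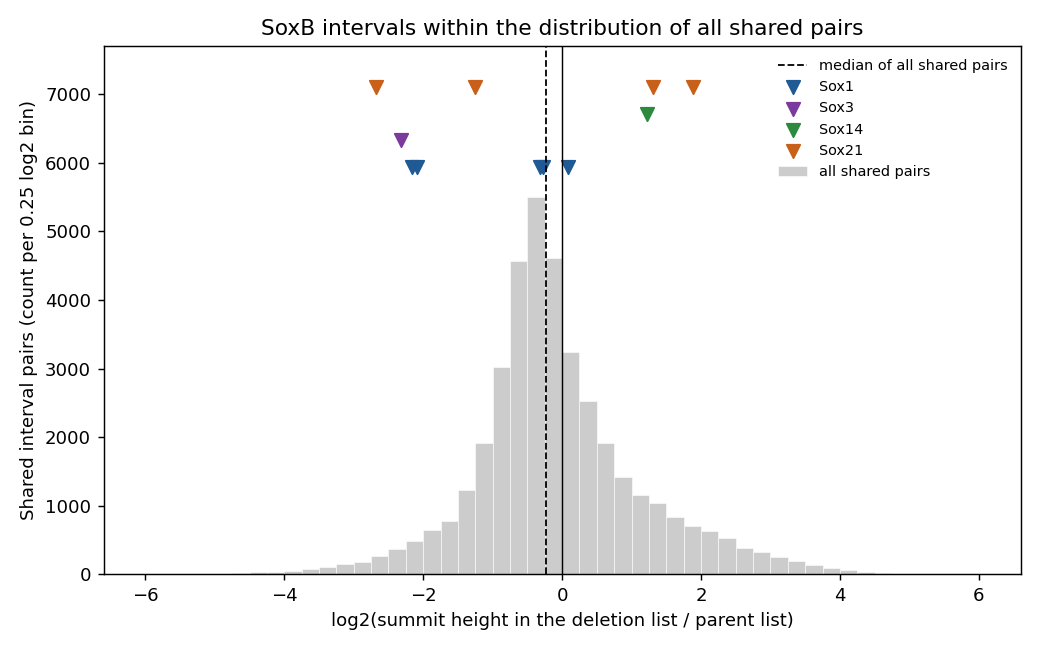
Counts of all 39500 shared pairs (grey bars) by the log2 ratio of deletion to parent summit height (x axis), with the 11 pairs of the 4 genes as triangles coloured by gene above them (their height on the y axis only separates the genes) and the median of −0.23 as a dashed line. *Sox1* and *Sox3* triangles reach −2.31, and *Sox21* has triangles on both sides, from −2.68 to 1.88.

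Motif matches within 100 bp of the summit were counted in each list. Many intervals are shared by both lists, so the 2 counts of a motif are not independent. AP-1 sites, bound by FOS and JUN proteins, were found in 2 of 22 parent intervals (9.09%, Wilson 95% interval 2.53 to 27.8%) and in 5 of 14 deletion intervals (35.7%, 16.3 to 61.2%). Over the whole lists the shares were 7.28% and 37.9%, so the members followed the lists. Of the 3 deletion-only intervals, 2 held one, beside 50.7% of all deletion-only intervals. SOX cores were in 2 of 22 parent intervals and in 0 of 14 deletion intervals, beside 13.0% and 10.6% of the lists. The count of 0 allows a share of up to 21.5% (upper Wilson bound). The 2 parent intervals with a SOX core were both among the 11 parent-only ones, beside 16.7% of all parent-only intervals. Octamers were in 3 of 22 parent intervals, all of *Sox1*, and in 1 of 14 deletion intervals, the *Sox1* promoter, beside 4.16% and 2.28%. The more degenerate core ACAANG was in 31.8% of parent and 21.4% of deletion members, beside 40.5% and 33.7% of the lists. ZIC cores were in 3 of 22 and 0 of 14 members, beside 12.1% and 9.04%. NFI half-sites (TTGGCA) were in 1 of 22 and 2 of 14, beside 21.7% and 12.2%, and a CDX core (TTTATNG) was in 1 of 22 and 1 of 14, beside 5.33% and 9.10%. A HOX-PBX site (TGATTNAT) and a CTCF core were in 0 of 22 and 0 of 14, beside 2.16% and 7.60% for HOX-PBX and 7.98% and 5.07% for CTCF. The median GC content of the 201 bases was 56.5% in the parent and 61.2% in the deletion intervals of the members, beside 52.2% and 48.3% of the lists.

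*Sox2*, the remaining SoxB gene and the target of the deletion, had 9 intervals in the parent and 4 in the deletion list, with summed heights of 361 and 75.1. Its ratio of 0.208 lay between those of *Sox3* and *Sox21*, but its parent intervals include the span that was removed. Of 14 other Sox genes, 7 had more parent intervals, 6 more deletion intervals and 1 as many in both. Their summed height was lower in the deletion list for 8 and higher for 5, and *Sox17* had no parent interval. *Sox6* and *Sox10*, with 0.310 and 0.305, had ratios like that of *Sox21*. *Sox8*, with 0.219, was nearer to *Sox2*, so ratios this low were not particular to the SoxB group.

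The genes most like each member were found by the distance over 5 log-scaled numbers, the counts of shared, parent-only and deletion-only intervals and the summed height in each of the 2 lists. *Pomgnt2*, *Aldh1a3* and *Nxph4* were nearest to *Sox1*, and *Aldh1a3*, which makes retinoic acid, had 8 parent and 6 deletion intervals with summed heights of 243 and 114. *Camkv*, *Rnase10* and *Sdr16c5* were nearest to *Sox3*, *Camkv* with heights of 74.5 and 10.7. *Doxl2*, *Ncmap* and *Ccdc169* were nearest to *Sox14*, and *Pde2a* and *Dnaic2* were among the nearest to *Sox21*, *Pde2a* with 333 and 131.

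Nothing assigned to a member lay between 44.0 kb, the farthest interval kept (*Sox1* in the parent, height 6.49, absent from the parent's own optimal list), and the limit of 50 kb. Just outside it were a deletion-only interval 52.1 kb upstream of *Sox3* (height 27.9) and a parent-only interval 55.6 kb upstream of *Sox1* (3.81). A parent-only interval 67.7 kb downstream of *Sox3* had a height of 140, above every member interval, and *Sox14* had one of 39.7 at +76.5 kb.

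Markers were open, with an interval within 1 kb of a TSS, for 8 of 8 genes of neural stem and progenitor cells in both lists and for 0 of 4 pluripotency genes in either. Of the listed genes of other cell types, the open ones were 1 and 2 of 4 for mesoderm in the parent and deletion lists, 3 and 4 of 4 for endoderm, 2 and 3 of 4 for neurons and 1 and 3 of 4 for epithelium. The deletion list also held more intervals within 1 kb of a TSS, 17859 against 16584 in the parent. The share of open promoters over all genes was not computed, so these counts are not read beyond that general rise. The part of other cell types in the differences at the SoxB genes was not tested, and fewer open cells and less opening per cell cannot be told apart in bulk ATAC-seq.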

How the data were processed

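ATAC-seq was performed on 3 parent and 3 SRR2-18-deleted NSPC cultures. For the deposited files, the authors ran the ENCODE pipeline for ATAC-seq, in which MACS2 calls peaks and IDR keeps those that recur among the cultures (mm10). For each genotype they deposited a conservative and an optimal list, with an IDR score, a fold enrichment (a ratio to local background), a −log10 p and −log10 q and a summit position. The labels give 1 depth range for all libraries, and the lists hold no depth per culture. The conservative lists were analysed here and the −log10 q was not used. Repeated lines of an interval were reduced to its summit with the highest fold enrichment, and GENCODE M21 basic TSSs were assigned.

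Summit reads and their background were recovered here by solving the Poisson model of MACS2 for the deposited fold enrichment and −log10 p. The reads came out within 0.05 of a whole number for 100% of intervals. The smallest background was taken as the genome-wide mean. These steps were tested on simulated data. An overlap of 1 bp made intervals shared. Motifs were exact matches on both strands within 100 bp of the summit. Intervals named are those within 1 kb of a member's TSS and the tallest per gene and list, and further ones chosen after their values were seen. The members and lists were chosen with earlier results of these data known. One gene and 1 motif of the chosen lists are not reported here. Python 3.11.15, pandas 2.3.3, SciPy 1.17.1, pysam 0.24.0 and matplotlib 3.10.9 were used.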

Additional observations from a re-analysis of the deposited data

Results flagged for a closer look

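The 4 intervals below, near *Sox1* and *Sox14* stood only in the optimal list of the deletion genotype and in no list of the parent, as intervals outside the lists compared. Their fold enrichments were 4.49 at 11.2 kb and 3.11 at 3.5 kb upstream of *Sox1*, and 4.27 at 6.6 kb and 3.30 at 4.7 kb downstream of the *Sox14* TSS. Their heights were 8.44, 5.90, 8.09 and 7.48.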

How the results depend on the processing

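No paired analysis was possible because each list pools the cultures of a genotype, and for the same reason no culture could be left out. The ratios of summed height were recomputed with heights over the median of shared intervals, the highest single summit and the summit with the most reads. The optimal lists and fold enrichment were also run. In all of these *Sox1*, *Sox3* and *Sox21* stayed below 1 and *Sox14* above 1. The ratios were not computed for the other distances, list lengths or thresholds given below. Within 100 kb *Sox14* gains parent intervals with heights of 39.7 and 25.2 and no deletion interval, so its ratio above 1 does not hold there. Among alternatives chosen after seeing the data, replacing heights by fold enrichment moved *Sox1*, *Sox3* and *Sox21* to 0.950, 0.598 and 0.889. It moved the ratio over all members to 0.940, and the optimal lists moved *Sox14* to 2.97. Counts of parent, deletion, parent-only and deletion-only intervals (22, 14, 11 and 3) became 13, 7, 5 and 0 within 10 kb of the TSS, and 5, 4, 1 and 0 when non-coding genes also competed for an interval. Within 100 kb the deletion-only count was 5, and in the optimal lists 7. With equal list lengths 9 deletion intervals remained. At a depth-scaled −log10 p of at least 100, 13 parent intervals were left, with 6 parent-only and 5 deletion-only. *Sox14* had more deletion than parent intervals in the optimal lists (5 against 3) and at that threshold (2 against 0). The counts were equal for *Sox1* in the optimal lists (8 and 8) and for *Sox3* at that threshold (1 and 1). They were also equal for *Sox14* at a threshold of 50 (2 and 2). When non-coding genes competed, *Sox1*, *Sox3* and *Sox21* each had 1 and 1. A 50 bp motif window left 0% of parent intervals with an AP-1 site, and ACAANG raised the SOX share of parent intervals to 31.8%. Merging overlapping intervals changed no count. Shallower deletion libraries limit what small intervals can show.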
